A study of Mus musculus with 18 samples.

Results

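The m6A writer complex genes are 9 genes whose products place a methyl group on the N6 position of adenosine in RNA, or hold the enzyme in place while it does so: Mettl3, Mettl14, Mettl16, Wtap, Rbm15, Rbm15b, Virma, Zc3h13 and Cbll1. They were taken by name, through their Ensembl identifiers, from the gene tables of a mouse cortex study, a rule that uses no measured value. All 9 were found among the 55153 genes of the RNA-seq table, and all 9 had counts in every library among the 14348 genes with counts in all Ribo-seq libraries. RNA-seq and Ribo-seq (sequencing of the mRNA fragments covered by ribosomes) were performed on cerebral cortex at embryonic day 15.5, with 3 libraries of each of 3 genotypes in each assay, 18 libraries in all, on a background labelled C57BL/6. Ctrl was labelled wild type. F-cKO was Fto(f/f, Emx1-cre) and M-cKO was Mettl3(f/f, Emx1-cre), in which Cre recombinase driven by the Emx1 promoter removes exon 3 of Fto or exons 2 and 3 of Mettl3 in the dorsal cortex. According to the methods, the floxed lines carried a mixed background of C57/BL6 and 129 strains. Cells of the dissected tissue outside the Emx1 lineage keep both genes. The label of Ctrl names no Cre, so Cre and the deletion cannot be told apart in a comparison with Ctrl, whereas both knockouts carry it.

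METTL3 is the catalytic subunit of the writer of m6A in mRNA, and METTL14 is its partner in the heterodimer, which holds the RNA substrate. WTAP, VIRMA, ZC3H13, CBLL1 (HAKAI) and the paralogs RBM15 and RBM15B form the regulatory part, which brings the heterodimer to nuclear speckles and to its RNA targets. METTL16 acts alone, on U6 snRNA and on hairpins of the mRNA of Mat2a, which encodes the enzyme that makes S-adenosylmethionine, the methyl donor.

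The writer genes lay on 7 chromosomes of the mouse genome (RefSeq, GRCm38.p6). Mettl3 (14:52294841-52308741, minus strand) and Zc3h13 (14:75284306-75344433, plus strand) shared chromosome 14, and Rbm15 (3:107305511-107334460, minus strand) and Mettl14 (3:123368295-123385990) shared chromosome 3. Rbm15b was at 9:106880928-106887075 (minus strand), Mettl16 at 11:74770815-74826855 (plus strand), Cbll1 at 12:31484829-31500676 (minus strand), Wtap at 17:12966799-12992543 (minus strand) and Virma at 4:11485958-11551143. Mettl3, Rbm15 and Rbm15b each overlapped a protein-coding gene on the other strand, Tox4 by 669 bases, Slc16a4 by 6605 bases and Dcaf1 by 65 bases. Whether the counting used strand is not given in the sources used here, so reads of these shared bases could not be assigned to one partner.

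The paralogs Rbm15 and Rbm15b rose most in M-cKO cortex, and the bases before their transcription starts are shown to place this pair side by side. The 250 bases are given 5′ to 3′ on the strand of the gene (RefSeq, GRCm38.p6), and capitals mark matches to the motifs searched.
Rbm15, chr3:107333290-107333539, strand minus: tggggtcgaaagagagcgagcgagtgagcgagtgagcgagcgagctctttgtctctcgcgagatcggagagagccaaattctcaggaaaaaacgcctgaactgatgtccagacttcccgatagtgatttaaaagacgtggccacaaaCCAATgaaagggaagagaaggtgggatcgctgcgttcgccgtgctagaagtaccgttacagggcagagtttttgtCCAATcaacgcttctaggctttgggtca
Rbm15b, chr9:106887076-106887325, strand minus: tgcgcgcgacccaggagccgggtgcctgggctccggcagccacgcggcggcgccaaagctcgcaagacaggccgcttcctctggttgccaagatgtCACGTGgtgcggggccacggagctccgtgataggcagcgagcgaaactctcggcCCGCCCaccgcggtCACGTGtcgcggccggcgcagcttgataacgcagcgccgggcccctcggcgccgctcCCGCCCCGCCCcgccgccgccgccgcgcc
GC made up 51.6% of the Rbm15 stretch and 76.0% of the Rbm15b stretch, against a median of 52.4% over 32851 promoter entries. The Rbm15 stretch lay inside the annotated span of its gene. In all, 7 motifs were searched on both strands in windows of 300 bases, which add 50 bases after the start.

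The Rbm15 window held 2 CCAAT boxes (CCAAT, NFY type), at positions -103 and -28 from the start, and a GGGCGG match (SP type) after the start. The Rbm15b window held 3 matches to GGGCGG, at positions -100, -29 and -24, of which the last 2 overlap by 1 base, and 2 E boxes (CACGTG) at -154 and -86. CCAAT was present in 37.4% of all promoter entries, GGGCGG in 35.7% and CACGTG in 7.15%. The letters AAGATGGC (YY1 type), held by 2.75% of entries, were found at the start of Mettl16 and in Rbm15b after its start. CCGGAAGT (ETS type), held by 3.89% of entries, was found across the start of Mettl3, and GCGC and TGCGC set 1 base apart (NRF1 type), held by 4.60%, in Cbll1. None of the 7 writer genes with an entry held TATAAA, which 13.6% of entries did. Mettl14 and Virma were not among the entries.

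The libraries held 18504094 to 22592406 assigned counts in RNA-seq and 10973699 to 35853227 in Ribo-seq. Ribo-seq depth was lower in M-cKO than in Ctrl, with 13764136 to 21725348 counts against 30081796 to 35853227. F-cKO, with 10973699 to 32954317, overlapped both. The shallowest Ribo-seq library was F-cKO replicate 2. Fto, the gene targeted in F-cKO, had 3.91, 2.11 and 4.04 RPKM of footprints in F-cKO against 25.87, 21.98 and 17.57 in Ctrl, and 3.26, 7.56 and 2.43 FPKM of RNA in F-cKO against 10.8, 11.2 and 8.37 in Ctrl, so that F-cKO replicate 2 kept the most Fto RNA. Fto RNA fell by 1.21 ± 0.33 on the log2 scale (adjusted p = 0.0298, edgeR), and its footprints differed by -2.67 ± 0.25 (adjusted p = 0.350), in a comparison in which no gene was called. All 10 dorsal cortex markers were detected in both assays. The summed level of 7 ganglionic eminence markers, as RNA-seq counts scaled to library size (CPM), was 420.8 to 426.3 for Ctrl, 388.9 to 528.2 for F-cKO and 564.8 to 758.3 for M-cKO, and of the 7, all were called higher in M-cKO and 3 in F-cKO against Ctrl. In Ribo-seq it was 148.6 to 223.7 for Ctrl and 250.005 to 442.7 for M-cKO, with 4 of 7 called higher. The summed RNA level of 4 meningeal markers was 55.2 to 112.0 CPM for Ctrl against 13.1 to 41.7 for F-cKO, with 2 of 4 called lower, and 2 of 5 endothelial and 1 of 5 erythroid markers were called lower in F-cKO as well. The part of tissue composition in the results below was not tested, and in these bulk samples fewer cells of a type and less RNA per cell cannot be told apart.

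In Ctrl cortex the writer genes spanned a wide range of RNA levels, given as FPKM (fragments scaled for gene length and library size, so comparable between genes). Rbm15b was the most abundant at 32.5 ± 2.02 FPKM (SD, n = 3), and its paralog Rbm15 the least abundant at 2.64 ± 0.308. Wtap at 19.95 ± 0.847 and Zc3h13 at 19.8 ± 0.804 overlapped each other. Virma followed at 9.77 ± 0.611, Cbll1 at 7.70 ± 0.908, Mettl3 at 5.78 ± 0.680, Mettl14 at 5.47 ± 0.275 and Mettl16 at 3.70 ± 0.153. Of these neighbours in the order, Mettl3 and Mettl14 overlapped, and the others did not.

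The order of footprint levels, given as RPKM (reads scaled for gene length and library size), was different. Counts and RPKM imply gene lengths that were 0.826 of those behind FPKM in each of the 9 genes, so both assays used the same whole-gene length up to a constant. Footprints lie mainly in the coding sequence, so orders of footprint levels and of TE between genes also follow the coding share of each gene. That share was not measured here. Comparisons of a gene between genotypes do not depend on it, except for the targeted genes. Deletion of exons can change the coding share of Mettl3 in M-cKO and of Fto in F-cKO. Zc3h13 came first at 48.1 ± 4.19 RPKM and Virma second at 33.7 ± 1.77, followed by Wtap at 14.7 ± 1.10 and Cbll1 at 11.5 ± 1.24. These 4 did not overlap. The next 4 genes overlapped their neighbours, with Mettl3 at 9.45 ± 0.420, Rbm15 at 9.40 ± 1.43, Rbm15b at 9.04 ± 0.852 and Mettl14 at 8.67 ± 0.658. Mettl16 was last at 4.28 ± 0.464 RPKM. Rbm15 and Rbm15b, the bottom and the top of the RNA order, thus had overlapping footprint levels.

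Translation efficiency (TE), the mean RPKM of footprints divided by the mean FPKM of RNA, set these 2 orders against each other. Since the tables of both assays were scaled separately, a TE is not read against 1. The median over 10491 genes with both values of at least 1 was 0.993 in Ctrl. Rbm15 had a TE of 3.56 (96.4th percentile of those genes), Virma 3.45 (96.0th) and Zc3h13 2.43 (88.9th). Mettl3 and Mettl14, which encode the heterodimer, had close values of 1.63 and 1.58, and Cbll1 and Mettl16 had 1.49 and 1.16. Wtap had 0.737 and Rbm15b 0.278, at percentile 12.01. Over all pairings of a Ribo-seq with an RNA-seq library of Ctrl, the ratio ran from 2.69 to 4.54 for Rbm15 and from 0.239 to 0.322 for Rbm15b, so the paralogs did not overlap.

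**Figure D1:**
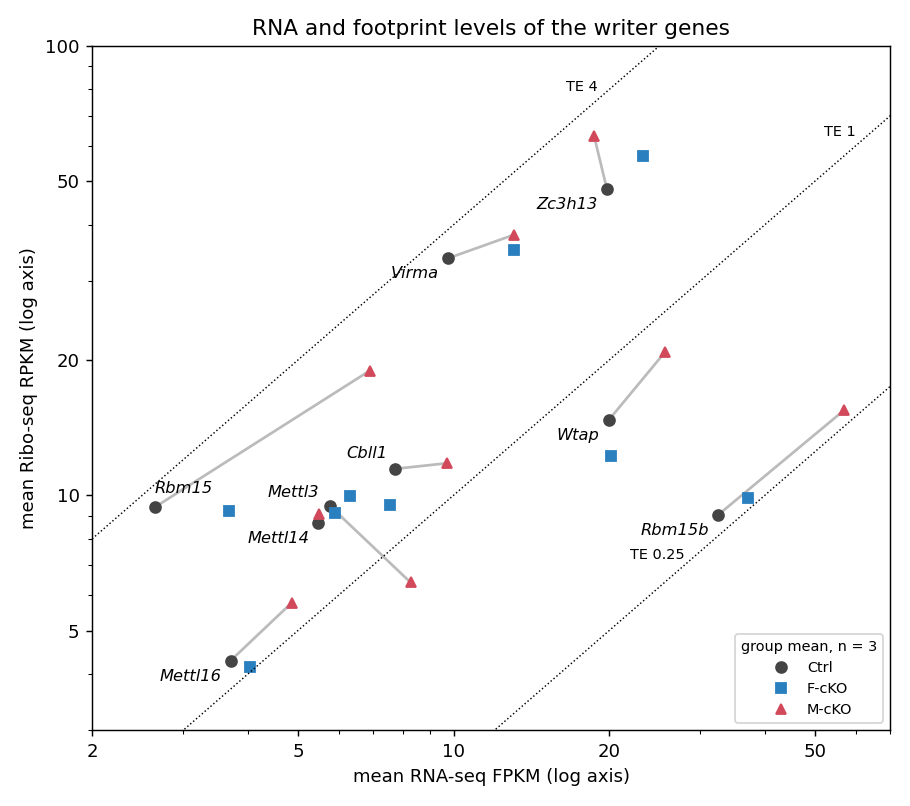
Mean footprint level (RPKM, log axis) against mean RNA level (FPKM, log axis) of each writer gene; circles are Ctrl, squares F-cKO and triangles M-cKO (n = 3 libraries each), grey lines join Ctrl to M-cKO and dotted lines mark equal TE. Rbm15 lies near the upper line and Rbm15b near the lower, and from Ctrl to M-cKO Mettl3 alone moves to more RNA and fewer footprints.

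The comparison of M-cKO with Ctrl asked what loss of the writer does to RNA and to translation. In M-cKO cortex RNA of 7 of the 9 writer genes rose, RNA of Mettl14 and Zc3h13 did not pass the test, and none fell (edgeR quasi-likelihood test, adjusted p below 0.05). Over all 16968 genes tested, 15.5% were called higher and 14.1% lower. In all 7 every M-cKO library exceeded every Ctrl library on the log2 CPM scale, as did 22.6% of all genes. The median log2 fold change was 0.38 over the 9 genes and -0.01 over all genes. On footprints, 4 of the 9 rose, Mettl3 fell and 4 did not pass, where 7.13% of 14314 genes were called higher and 7.5% lower. The M-cKO libraries of 5 writer genes (18.4% of all genes) exceeded every Ctrl library in footprints, and those of Mettl3 (21% of all genes) were under every Ctrl library. The median log2 fold change of footprints was 0.40 over the 9 genes and -0.00 over all genes. The values are given below by the part each product plays in the complex.

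**Figure D2:**
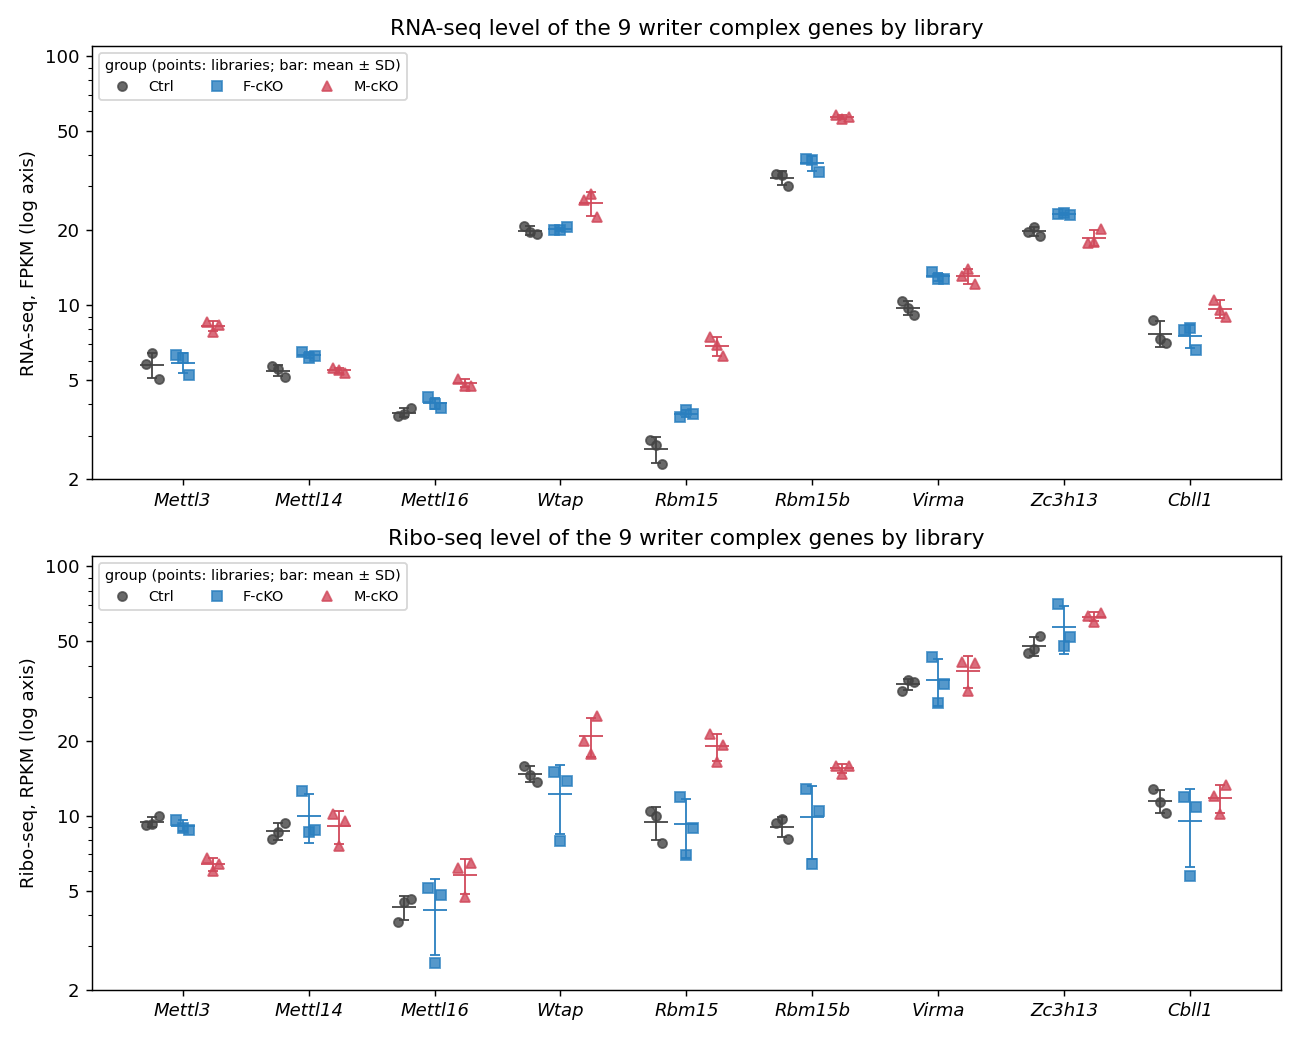
RNA level (FPKM, upper panel) and footprint level (RPKM, lower panel) of the 9 writer genes on log axes; points are libraries, bars are mean ± SD, n = 3 per group. The M-cKO libraries of Rbm15 and Rbm15b lie above all others in both panels, and those of Mettl3 lie above in RNA and below in footprints.

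Mettl3, the targeted gene, had 5.84, 6.43 and 5.07 FPKM of RNA in Ctrl and 8.61, 7.82 and 8.34 in M-cKO. Each M-cKO library exceeded the whole Ctrl range, and RNA of Mettl3 was higher by 0.50 ± 0.09 on the log2 scale (log2 fold change ± SE, 1.42-fold, adjusted p = 0.00221). The count is summed over the whole gene, of which exons 2 and 3 are a part, so it does not check the deletion. Footprints on Mettl3 were 9.16, 9.25 and 9.93 RPKM in Ctrl and 6.78, 6.02 and 6.40 in M-cKO, so that every M-cKO library was under the Ctrl range. Footprints fell by 0.55 ± 0.09 on the log2 scale (0.683-fold, adjusted p = 0.0157). The mean footprint level of Mettl3 in M-cKO was 0.677 of that in Ctrl.

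For Mettl14, the RNA-binding partner of METTL3, levels in M-cKO and Ctrl overlapped in both assays. RNA was 5.69, 5.56 and 5.16 FPKM in Ctrl and 5.59, 5.52 and 5.36 in M-cKO, a log2 fold change of -0.01 ± 0.07 (adjusted p = 0.966) whose sign turned in 6 of 12 alternatives, 3 of them with a library left out. Footprints were 8.03, 8.63 and 9.35 RPKM in Ctrl and 10.2, 7.51 and 9.54 in M-cKO, a log2 fold change of 0.07 ± 0.11 (adjusted p = 0.681). The ratio of Mettl3 to Mettl14 within each library, a comparison chosen after the values were seen, does not depend on library scaling. For RNA the M-cKO libraries had 1.54, 1.42 and 1.56 (mean 1.505 ± 0.0761, SD, n = 3), those of Ctrl 1.03, 1.16 and 0.983 (1.05 ± 0.0902) and those of F-cKO a mean of 0.933 ± 0.0863. For footprints the M-cKO libraries had 0.667, 0.801 and 0.670 (mean 0.713 ± 0.0765), those of Ctrl 1.14, 1.07 and 1.06 (1.09 ± 0.0429) and those of F-cKO a mean of 0.936 ± 0.146. M-cKO lay apart from Ctrl in both assays, above in RNA and below in footprints, and both comparisons gave an exact permutation p of 0.1 (two-sided), the smallest that 3 against 3 libraries allow. The footprint ratios of F-cKO, 0.768, 1.04 and 1.003, were under those of Ctrl as well (exact permutation p = 0.1) and overlapped those of M-cKO (exact permutation p = 0.2). For RNA, F-cKO overlapped Ctrl (exact permutation p = 0.2).

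**Figure D3:**
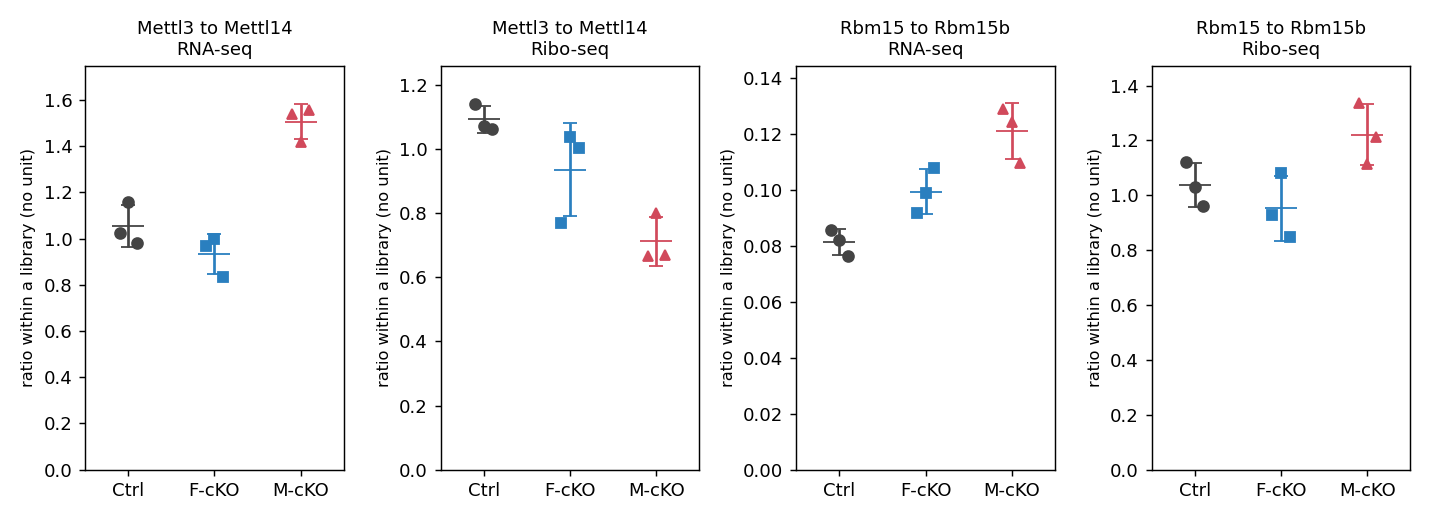
Ratio of Mettl3 to Mettl14 and of Rbm15 to Rbm15b within each library, from FPKM (RNA-seq) or RPKM (Ribo-seq); points are libraries, bars are mean ± SD, n = 3 per group, and axes start at 0. The Mettl3 to Mettl14 ratio of M-cKO is above Ctrl in RNA, and those of M-cKO and F-cKO are both below Ctrl in footprints.

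Mettl16, the methyltransferase that acts outside the complex, had 3.58, 3.66 and 3.87 FPKM in Ctrl and 5.07, 4.75 and 4.76 in M-cKO. RNA rose by 0.38 ± 0.07 on the log2 scale (adjusted p = 0.00141). Footprints were 3.75, 4.49 and 4.61 RPKM in Ctrl and 6.15, 4.70 and 6.43 in M-cKO. The groups did not overlap, but M-cKO replicate 2 lay close to Ctrl, and a log2 fold change of 0.43 ± 0.13 did not pass the test (adjusted p = 0.0589). It passed with DESeq2 (adjusted p = 0.0164), with protein-coding genes alone (adjusted p = 0.0366, edgeR) and without M-cKO replicate 2 (adjusted p = 0.0365, edgeR). Mat2a, the target of METTL16, had 41.5 ± 3.01 RPKM of footprints in Ctrl and 39.8 ± 10.3 in M-cKO (SD, n = 3; log2 fold change -0.05 ± 0.16, adjusted p = 0.835 from edgeR). Its RNA varied widely within groups, 2.39 to 5.97 FPKM in Ctrl and 3.55 to 4.90 in M-cKO.

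Wtap, which anchors the heterodimer in nuclear speckles, had 20.9, 19.7 and 19.2 FPKM in Ctrl and 26.6, 27.9 and 22.6 in M-cKO. RNA rose by 0.35 ± 0.08 on the log2 scale (adjusted p = 0.00628). Footprints were 15.9, 14.5 and 13.7 RPKM in Ctrl and 19.96, 17.6 and 24.999 in M-cKO, a rise of 0.51 ± 0.13 (adjusted p = 0.0364). M-cKO and Ctrl did not overlap in either assay.

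Rbm15, which with its paralog binds RNA and recruits the complex to its targets, changed most among the writer genes. RNA was 2.89, 2.74 and 2.30 FPKM in Ctrl and 7.47, 6.93 and 6.26 in M-cKO, and the groups were far apart. RNA rose by 1.37 ± 0.10 on the log2 scale (2.59-fold, adjusted p = 1.67e-05). Footprints on Rbm15 were 10.43, 10.002 and 7.77 RPKM in Ctrl and 21.2, 16.4 and 19.2 in M-cKO, a rise of 1.02 ± 0.13 (2.03-fold, adjusted p = 0.00818).

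Rbm15b, the more abundant paralog, had 33.8, 33.5 and 30.1 FPKM in Ctrl and 58.1, 55.8 and 57.1 in M-cKO. RNA rose by 0.80 ± 0.06 on the log2 scale (1.74-fold, adjusted p = 1.81e-05). Footprints were 9.31, 9.72 and 8.08 RPKM in Ctrl and 15.9, 14.7 and 15.8 in M-cKO, a rise of 0.79 ± 0.10 (1.73-fold, adjusted p = 0.00669). No M-cKO library came near the Ctrl range in either assay. The ratio of Rbm15 to Rbm15b within a library, was for RNA 0.121 ± 0.00999 in M-cKO, 0.0993 ± 0.00795 in F-cKO and 0.0812 ± 0.00469 in Ctrl (SD, n = 3), and the 3 groups did not overlap (exact permutation p = 0.1 for each pair). For footprints the ratio was 1.04 ± 0.0797 in Ctrl and 1.22 ± 0.112 in M-cKO, and the groups overlapped (exact permutation p = 0.2). F-cKO had 0.953 ± 0.118, which lay below M-cKO (exact permutation p = 0.1) and overlapped Ctrl (exact permutation p = 0.4).

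Virma, the large scaffold of the regulatory part, had 10.4, 9.74 and 9.18 FPKM in Ctrl and 13.2, 14.0 and 12.2 in M-cKO, and RNA rose by 0.41 ± 0.07 on the log2 scale (adjusted p = 0.00152). Footprints on Virma were 31.68, 34.96 and 34.46 RPKM in Ctrl and 41.4, 31.6 and 41.1 in M-cKO. The groups overlapped, M-cKO replicate 2 being the lowest of all 6 by RPKM but within the Ctrl range by CPM, and the log2 fold change of 0.18 ± 0.10 did not pass (adjusted p = 0.257).

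Zc3h13, which bridges WTAP to the RNA-binding proteins, showed the opposite order of assays. RNA was 19.74, 20.62 and 19.02 FPKM in Ctrl and 17.81, 17.98 and 20.34 in M-cKO, overlapping, with a log2 fold change of -0.09 ± 0.07 (adjusted p = 0.354). Footprints on Zc3h13 were 44.8, 46.6 and 52.8 RPKM in Ctrl and 63.55, 60.04 and 65.03 in M-cKO. No M-cKO library reached down to the Ctrl range, and footprints rose by 0.40 ± 0.09 (adjusted p = 0.0314).

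Cbll1, a RING finger protein of the complex, had 8.74, 7.32 and 7.05 FPKM in Ctrl and 10.5, 9.59 and 8.95 in M-cKO. RNA rose by 0.32 ± 0.10 on the log2 scale (adjusted p = 0.0282), with a narrow gap between the groups. Footprints were 12.7, 11.3 and 10.3 RPKM in Ctrl and 11.9, 10.2 and 13.2 in M-cKO, overlapping, with a log2 fold change of 0.05 ± 0.12 (adjusted p = 0.802).

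Over all genes, RNA calls fell from 2630 higher and 2394 lower to 2048 and 1498 without Ctrl replicate 3. Footprint calls fell from 1020 higher and 1073 lower to 230 and 160, 115 and 62, and 269 and 192 without Ctrl replicate 1, 2 and 3, and to 500 and 380, and 771 and 524 without M-cKO replicate 1 and 2. Without M-cKO replicate 3 they rose to 1303 and 1244. The RNA calls of 6 of the 7 writer genes held in every alternative run, and that of Cbll1 was lost when Ctrl replicate 2 or 3 or M-cKO replicate 1 or 2 was left out (adjusted p = 0.0782, 0.0917, 0.106 and 0.0695, edgeR). On footprints, no call held when the F-cKO libraries shared in the estimate of spread (adjusted p = 0.066 for Rbm15, 0.108 for Rbm15b, 0.118 for Mettl3, 0.172 for Zc3h13 and 0.211 for Wtap, edgeR); the calls of Rbm15 and Rbm15b held in all other alternatives. Without Ctrl replicate 1, 2 or 3 the footprint call of Mettl3 was lost, with log2 fold changes of -0.57, -0.57 and -0.49 and adjusted p of 0.0542, 0.0804 and 0.0624 (edgeR). The footprint calls of Wtap and Zc3h13 were lost without Ctrl replicate 1 (adjusted p = 0.0774 and 0.10002), 2 (0.133 and 0.138) or 3 (0.109 and 0.0501) or M-cKO replicate 1 (0.0641 and 0.0698).

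**Figure D4:**
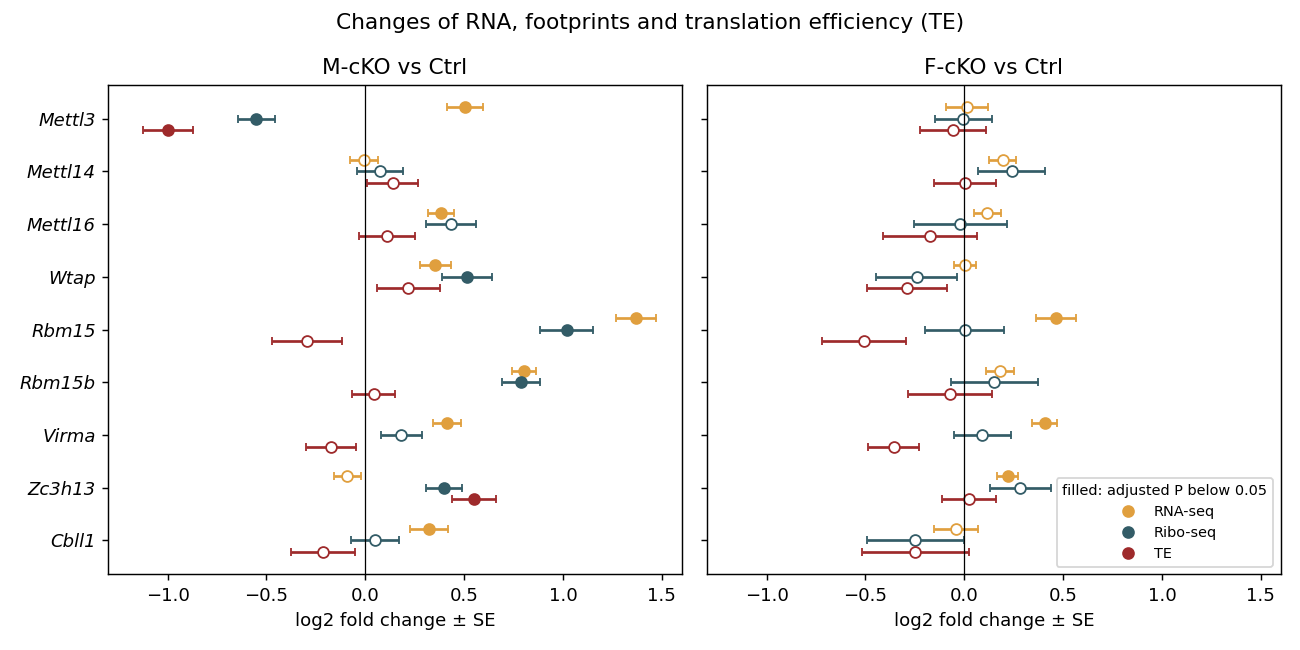
Log2 fold change ± SE (edgeR, x axis) of RNA, footprints and TE for the 9 writer genes, in M-cKO against Ctrl (left) and F-cKO against Ctrl (right); filled points have an adjusted p below 0.05. In M-cKO, RNA and footprints of Mettl3 lie on opposite sides of 0, and Rbm15 and Rbm15b lie to the right in both.

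The change of TE was tested as the genotype effect on footprints beyond that on RNA, in one model over both assays. Among the 9 writer genes TE of Mettl3 fell and TE of Zc3h13 rose in M-cKO, where 0.824% of 14328 genes were called lower and 1.24% higher. The median log2 change of TE was 0.04 over the 9 genes and 0.02 over all genes. TE of Mettl3 fell by 0.998 ± 0.128 on the log2 scale (0.501-fold, adjusted p = 0.00927). Its TE level was 1.63 in Ctrl, with pairings of libraries between 1.43 and 1.96, and 0.775 in M-cKO, with pairings between 0.699 and 0.867, without overlap. Mettl3 is the gene targeted in M-cKO, and transcripts without the deleted exons can still add reads to its counts. An effect of the deletion on these counts cannot be told apart from a change in translation. The study proposes that the opposite changes of Mettl3 RNA and footprints might stem from the knockout strategy. TE of Zc3h13 rose by 0.55 ± 0.11 (1.46-fold, adjusted p = 0.0334), from a level of 2.43 to 3.36. The pairings lay between 2.17 and 2.77 in Ctrl, and those of M-cKO between 2.95 and 3.65.

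The other 7 writer genes did not pass the test of TE. Rbm15 and Rbm15b, whose RNA and footprints rose together, had log2 changes of TE of -0.30 ± 0.18 (adjusted p = 0.384) and 0.04 ± 0.11 (adjusted p = 0.890). Wtap had 0.22 ± 0.16, Mettl14 0.14 ± 0.13, Mettl16 0.11 ± 0.14, Virma -0.17 ± 0.13 and Cbll1 -0.21 ± 0.16. Over all genes, 178 were called higher and 118 lower, and 290 and 171 with a replicate block that paired the assays within a genotype. Without RNA-seq Ctrl replicate 1, 2 or 3 there were 52 and 35, 8 and 4, and 11 and 5, and without RNA-seq M-cKO replicate 1, 2 or 3 there were 7 and 3, 6 and 4, and 34 and 22. Without Ribo-seq Ctrl replicate 1, 2 or 3 there were 36 and 19, 6 and 5, and 211 and 198, and without Ribo-seq M-cKO replicate 1, 2 or 3 there were 218 and 188, 128 and 79, and 449 and 385. The call of Mettl3 held in every alternative run. That of Zc3h13 was lost when all groups shared the estimate of spread (adjusted p = 0.222, edgeR) and without RNA-seq Ctrl replicate 1, 2 or 3 (0.0769, 0.0926 and 0.0841), RNA-seq M-cKO replicate 1 or 2 (0.1003 and 0.0903) or Ribo-seq Ctrl replicate 1 or 2 (0.0713 and 0.0946).

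The comparison of F-cKO with Ctrl asked the same of loss of the eraser, and it uses the same Ctrl libraries. RNA of Rbm15, Virma and Zc3h13 rose in F-cKO cortex and the other 6 writer genes did not pass, where 11.5% of 16944 genes were called higher and 9.57% lower. The median log2 fold change was 0.18 over the 9 genes and -0.01 over all genes. Virma RNA was 13.6, 12.8 and 12.8 FPKM in F-cKO, above all Ctrl libraries, and rose by 0.41 ± 0.06 on the log2 scale (adjusted p = 0.00443, edgeR). Rbm15 RNA was 3.56, 3.79 and 3.67 FPKM and rose by 0.46 ± 0.10 (adjusted p = 0.0124), and that of Zc3h13 was 23.30, 23.38 and 22.95 FPKM and rose by 0.22 ± 0.06 (adjusted p = 0.0223). In these 3 genes F-cKO and Ctrl did not overlap.

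Mettl14 and Rbm15b had all F-cKO libraries above Ctrl as well, which makes 5 of the 9 writer genes and 20.9% of all genes, with log2 fold changes of 0.19 ± 0.07 (adjusted p = 0.0718) and 0.18 ± 0.07 (adjusted p = 0.0943), which did not pass. Both passed when all groups shared the estimate of spread (adjusted p = 0.0369 and 0.047, edgeR), Rbm15b also without F-cKO replicate 3 (adjusted p = 0.0342) and Mettl14 also with protein-coding genes alone (adjusted p = 0.0499). Mettl3 RNA was 6.30, 6.12 and 5.25 FPKM in F-cKO, within the Ctrl range, with a log2 fold change of 0.01 ± 0.11 (adjusted p = 0.944). Mettl16, Wtap and Cbll1 had log2 fold changes of 0.12, 0.01 and -0.04. The call of Zc3h13 was lost without Ctrl replicate 1 or 3 or F-cKO replicate 2 (adjusted p = 0.0611, 0.0843 and 0.077, edgeR). Without these libraries, calls over all genes fell from 1955 higher and 1621 lower to 1481 and 947, 984 and 559, and 1148 and 812.

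On footprints and on TE no writer gene was called in F-cKO, nor was any gene in the table (0% of 14335 genes for footprints and 0% of 14322 for TE, edgeR). At an unadjusted p below 0.05 there were 318 genes (2.22%) for footprints, none of them a writer gene, and 1244 (8.69%) for TE, of which Virma and Rbm15 were 2. Footprint levels of F-cKO and Ctrl overlapped in all 9 writer genes, where 7.85% of all genes did not overlap. DESeq2 called 5 genes higher and 1 lower for footprints and 6 higher and 41 lower for TE, with no writer gene among them. Footprints on Mettl3 were 9.64, 8.93 and 8.78 RPKM in F-cKO, overlapping Ctrl, with a log2 fold change of -0.00 ± 0.14. Those on Zc3h13 were 71.03, 47.78 and 52.26 RPKM (0.28 ± 0.15) and those on Rbm15 11.8, 6.94 and 8.88 RPKM (0.00 ± 0.20). By RPKM, F-cKO replicate 2 was the lowest of the 3 for every writer gene but Mettl3, and by CPM, the scale of the tests, for every one but Mettl3, Mettl14 and Zc3h13. The biological coefficient of variation over all genes was 0.379 in this comparison and 0.230 in that of M-cKO, and without F-cKO replicate 2 no writer gene was called either. The log2 change of TE was -0.36 ± 0.13 for Virma and -0.51 ± 0.21 for Rbm15 (adjusted p = 0.524 and 0.568, edgeR).

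The knockouts were also compared directly. RNA of 6 writer genes was higher in M-cKO than in F-cKO, RNA of Zc3h13 and Mettl14 was lower, and Virma did not pass, where 13.1% of 16802 genes were called higher and 14.3% lower. In the same comparison 6 of 7 ganglionic eminence, 5 of 5 erythroid, 2 of 4 meningeal, 1 of 5 endothelial and 1 of 5 microglial markers were called higher, and of 10 dorsal cortex markers 1 was called higher and 4 lower. The summed RNA level of the erythroid markers was 282.0 to 347.6 CPM for F-cKO and 387.7 to 562.2 for M-cKO, beside 381.3 to 693.4 for Ctrl. The median log2 difference was 0.34 over the 9 genes and -0.00 over all genes. Rbm15 differed by 0.90 ± 0.08 on the log2 scale (adjusted p = 0.000109), Rbm15b by 0.61 ± 0.07 (adjusted p = 0.000228) and Mettl3 by 0.48 ± 0.09 (adjusted p = 0.00301). Wtap, Mettl16 and Cbll1 differed by 0.34, 0.26 and 0.35. Zc3h13 was lower in M-cKO by a log2 difference of -0.32 ± 0.07 (adjusted p = 0.00671). The value of Virma was -0.00 ± 0.07 (adjusted p = 0.976), with 13.1 ± 0.482 FPKM in F-cKO and 13.1 ± 0.891 in M-cKO (SD, n = 3).

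Mettl14 was lower in M-cKO by a log2 difference of -0.21 ± 0.07 (adjusted p = 0.0383, edgeR), with 5.49 ± 0.118 FPKM in M-cKO and 6.31 ± 0.183 in F-cKO (SD, n = 3). This call was lost with any of the 6 libraries left out, with adjusted p of 0.116, 0.0958 and 0.0803 without F-cKO replicate 1, 2 and 3 and of 0.110, 0.106 and 0.097 without M-cKO replicate 1, 2 and 3 (edgeR). The call of Mettl16 was lost without F-cKO replicate 2 (adjusted p = 0.0607) or M-cKO replicate 1 (0.0593), and that of Cbll1 without M-cKO replicate 1 (0.0795) or 2 (0.055). Calls over all genes fell from 2196 higher and 2403 lower to 1442 and 1325 without F-cKO replicate 2, and to 1754 and 1498, and 1580 and 1500 without M-cKO replicate 1 and 2.

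On footprints and TE the direct comparison called no gene at all (0% of 14262 and 0% of 14314, edgeR), with 1154 (8.09%) and 543 genes (3.79%) at an unadjusted p below 0.05. Footprints on Mettl3 differed by -0.53 ± 0.17, on Wtap by 0.78 ± 0.23, on Rbm15 by 1.04 ± 0.19 and on Rbm15b by 0.66 ± 0.21 on the log2 scale, and these were the 4 writer genes among the 1154. Adjusted p ran from 0.364 for Rbm15 to 0.586 for Mettl3 and Rbm15b (edgeR). DESeq2 called 173 genes higher and 27 lower for footprints, Rbm15 among the former (adjusted p = 0.00152), and 23 higher and 2 lower for TE. The log2 difference of TE was -0.97 ± 0.16 for Mettl3 (adjusted p = 0.317, edgeR), which DESeq2 called (adjusted p = 1.87e-06), as did edgeR with all groups in a single fit (adjusted p = 0.0323). It was 0.50 ± 0.16 for Zc3h13 (adjusted p = 0.929).

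Across the 9 RNA-seq libraries, Rbm15 and Rbm15b followed each other most closely of all 36 pairs of writer genes (Pearson r = 0.978 of log2 CPM, n = 9), and Mettl3 followed Rbm15b (r = 0.950). Mettl14 followed Zc3h13 (r = 0.803) and not Mettl3 (r = -0.296). Across the 9 Ribo-seq libraries, Rbm15 and Rbm15b again followed each other (r = 0.950). There Mettl3 ran opposite to both, with r = -0.944 for Rbm15 and -0.928 for Rbm15b. These correlations are a description: the libraries share 3 genotypes, which set much of the spread. Among 11746 genes, those most like Mettl3 in RNA were Zc3h10 (r = 0.983), 2310022A10Rik (0.982), Fbxo46, Gna12 and Pcbp1 (0.977 each). In Ribo-seq, among 10638 genes, they were Pde1b (r = 0.976), Phkb (0.962), Rad50 (0.957), Taf1 (0.955) and Herc1 (0.952).

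Genes that act beside the writer complex were counted from lists taken from general knowledge of the pathway. Of 14 m6A readers, 4 rose and 3 fell in RNA and 5 rose and 1 fell in footprints in M-cKO against Ctrl (edgeR), where, as above, 15.5% of all genes were called higher and 14.1% lower in RNA and 7.13% higher and 7.5% lower in footprints. Ythdf1 and Ythdf2, cytoplasmic readers with a YTH domain, rose in RNA by 0.84 ± 0.07 and 0.69 ± 0.06 and in footprints by 0.48 ± 0.09 and 0.86 ± 0.16 on the log2 scale. Igf2bp2 rose by 0.61 ± 0.12 in RNA and 0.71 ± 0.15 in footprints, and Rbmx fell by 0.60 ± 0.07 and by 0.94 ± 0.17. Both erasers, Fto (0.36 ± 0.10) and Alkbh5 (0.39 ± 0.07), rose in RNA, and neither passed in footprints.

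Of 5 other RNA adenosine methyltransferase genes, Pcif1, which methylates the adenosine next to the cap, rose in RNA (0.31 ± 0.07), and none fell. On footprints 1 of the 5 fell, Mettl5 (-0.69 ± 0.18), and none rose. Of 7 genes of the S-adenosylmethionine cycle, Ahcy (0.27 ± 0.08) rose and Ahcyl2 (-0.33 ± 0.08) fell in RNA, and Ahcyl1 (-0.14 ± 0.06, adjusted p = 0.0838 from edgeR) did not pass. These 1 of 7 in each direction are close to the shares over all genes (15.5% higher and 14.1% lower). No gene of that cycle was called in footprints by edgeR (2 of 7 at an unadjusted p below 0.05). In F-cKO against Ctrl, RNA of 6 of the 14 readers, 2 of the 5 other methyltransferases, 1 of the 7 cycle genes and Alkbh5 rose, and of these lists Fto alone fell, where 11.5% of all genes were called higher and 9.57% lower. In M-cKO against F-cKO, RNA of 2 readers and of Fto was higher and that of 5 readers and 2 cycle genes lower, where 13.1% of all genes were called higher and 14.3% lower. In TE of M-cKO against Ctrl, 1 of the 14 readers rose (Eif3a, named after its value was seen) and no gene of the other lists was called, where 1.24% of all genes were called higher and 0.824% lower. The median log2 fold change of RNA in M-cKO against Ctrl was 0.13 over the readers, 0.14 over the other methyltransferases and -0.08 over the cycle, beside 0.38 over the writer genes.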

How the data were processed

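The authors deposited gene counts for RNA-seq and Ribo-seq, FPKM for RNA-seq and RPKM for Ribo-seq. Per the labels, reads were placed on mm10, and the submitters' processing notes name HISAT2 2.0.5, TopHat2, HTSeq and DESeq2 1.14.1. The study's methods give TopHat2 and HTSeq for Ribo-seq. The tool for RNA-seq counts, the annotation and the use of strand are not given in the sources used here. Of 54838 genes listed for Ribo-seq, 40490 were blank in 8 of 9 libraries and were left out.

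Deposited counts were tested with edgeR 4.0.16 (quasi-likelihood, TMM, filterByExpr with a minimum count of 10, Benjamini-Hochberg adjustment over all genes tested, called below 0.05), in R 4.3.3, each comparison on its own libraries, and SE is the log2 fold change divided by the root of F. A change of TE was tested as an assay-by-genotype interaction. The statistics were checked on simulated counts with known changes. Levels are deposited FPKM and RPKM, which carry no interval for counting error here. Labels call the libraries biological repeats but name no animals or litters, and the methods leave unclear whether the Ribo-seq samples came from 1 litter, so p-values measure the spread between these libraries. Same-numbered libraries of both assays correlated in their deviations at 0.110 to 0.265 in Ctrl and 0.103 to 0.328 in M-cKO. In F-cKO they correlated at -0.276 to -0.019. The numbers may thus pair the assays in Ctrl and M-cKO (from the data, not the labels), which these weak correlations do not settle. Between genotypes within an assay, same-numbered libraries correlated at -0.278 to 0.163, and differently numbered ones at -0.319 to 0.415. No pairing of genotypes was taken from the numbers. Alternatives were DESeq2 1.42.0, RLE scaling, no filter, protein-coding genes alone, all groups in a single fit, a replicate block and each library left out. Members and lists were chosen with earlier results of these data known. The genes given values were the 9 writer genes, Fto, Mat2a, the 5 genes most like Mettl3 in each assay, and listed genes called in M-cKO in both assays or, in lists with none, up to 3 with the smallest p in RNA. Mettl5 was named after its value was seen, as the single call of its list. A gene of the S-adenosylmethionine cycle list is not reported here, and the list was counted without it.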

Additional observations from a re-analysis of the deposited data

Results flagged for a closer look

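The effect of the M-cKO genotype differed between RNA and footprints in 2 writer genes, as tested by the interaction of assay and genotype (edgeR). For Mettl3, the gene targeted in M-cKO, the log2 difference, footprints minus RNA, was -0.998 (adjusted p = 0.00927). For Zc3h13 it was 0.55 (adjusted p = 0.0334), and this call was lost without any 1 of 7 libraries. Groups of 3 libraries were not examined for single outlying values.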

How the results depend on the processing

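Over 1161 recomputed log2 fold changes of the 9 writer genes, 1041 kept their direction and their side of the threshold. Another 47 fell short of the threshold, 10 came to pass it and 63 changed sign, the latter in 20 comparisons of a gene of which 0 were past the threshold; the cause was not tested. With all groups in a single fit, counts of writer genes called were 5 higher in RNA of F-cKO, 0 higher and 0 lower in footprints of M-cKO, 0 higher in TE of M-cKO (against Ctrl) and 1 lower in TE of M-cKO against F-cKO. DESeq2 gave 1 lower in RNA, 1 higher in footprints and 1 lower in TE of M-cKO against F-cKO. Without the filter, 1 was lower in RNA of M-cKO against F-cKO. No pairing of genotypes was taken from the numbers. A replicate block left 2 higher in footprints of M-cKO against Ctrl (adjusted p = 0.064 for Wtap and 0.0549 for Zc3h13, edgeR). It left Zc3h13 out in RNA of F-cKO (adjusted p = 0.0533) and left 1 lower in RNA of M-cKO against F-cKO (adjusted p = 0.0717 for Mettl14). A replicate block pairing both assays within a genotype, added after seeing the data, changed no call of a writer gene in TE. Over all genes, calls higher and lower came to 1275 and 855 with a replicate block in RNA of F-cKO (1955 and 1621 without it). In footprints of M-cKO against Ctrl they came to 1615 and 1502 with DESeq2, 681 and 638 with the block and 29 and 6 in a single fit (1020 and 1073 otherwise), and in TE to 551 and 493, 103 and 72, and 5 and 2 (178 and 118 otherwise). Leaving out single libraries gave 1 to 1 lower in RNA of M-cKO against F-cKO, 2 to 5 higher and 0 to 1 lower in footprints of M-cKO, and 0 to 1 higher in TE of M-cKO.

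Sign changes by setting were 0.0047 (DESeq2), 0.016 (no filter) and 0.0025 (single fit) for Mettl14 RNA in M-cKO against Ctrl. For Virma RNA in M-cKO against F-cKO they were 0.0047 (DESeq2), 0.0011 (RLE), 0.015 (no filter), 0.0027 (single fit) and 0.0045 (protein-coding). For Rbm15 footprints in F-cKO they were -0.0016 (DESeq2), -0.00195 (RLE) and -0.0041 (replicate block), and for Mettl14 TE in F-cKO -0.003001 (replicate block) and -0.0034 (replicate block within genotype). With single libraries left out, log2 fold changes against Ctrl in RNA ran from -0.0356 to 0.0207 for Mettl14 in M-cKO, and from -0.101 to 0.065 for Cbll1, -0.019 to 0.0463 for Wtap and -0.07002 to 0.0996 for Mettl3 in F-cKO. In footprints they ran from -0.0244 to 0.141 for Cbll1 in M-cKO, and from -0.0628 to 0.0919 for Mettl3, -0.154 to 0.185 for Mettl16, -0.165 to 0.112 for Rbm15, -0.0256 to 0.334 for Rbm15b and -0.0336 to 0.176 for Virma in F-cKO. In TE they ran from -0.0497 to 0.0934 for Rbm15b in M-cKO, and from -0.172 to 0.0963 for Mettl14, -0.143 to 0.116 for Zc3h13, -0.135 to 0.0249 for Mettl3, -0.322 to 0.0732 for Mettl16, -0.265 to 0.154 for Rbm15b and -0.405 to 0.00905 for Cbll1 in F-cKO. Between M-cKO and F-cKO they ran from -0.0416 to 0.0609 for Virma in RNA, and from -0.209 to 0.152 for Cbll1 and -0.098 to 0.263 for Rbm15b in TE.

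The footprint comparisons with F-cKO were the least precise. F-cKO replicate 2 held 10973699 counts, and the biological coefficient of variation was 0.379 and 0.413 in the 2 comparisons with F-cKO, against 0.0938 to 0.103 in RNA-seq. Median TE moved from 0.790, 0.850 and 0.944 in Ctrl, F-cKO and M-cKO over all genes above 0 to 0.993, 0.940 and 0.944 over genes of at least 1. With a pseudocount of 1 the log2 ratio of mean FPKM in M-cKO against Ctrl was 0.32 for Mettl16 and 1.11 for Rbm15.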
